A study of Rattus norvegicus with 5 samples.

Results

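The 6 genes described here are the inflammatory caspases Casp1 and Casp4, the necroptosis kinase Ripk3, the cytokines Il18 and Il1b, and Il18bp, the soluble antagonist of Il18. They were taken by name from the platform annotation. Each of the 6 was measured, by 1 probe set of its own, among 8797 probe sets in all. The genes were listed with results of this same strain comparison known. Their own values are therefore given as a description, and p-values are given only for other genes. The lists used for other genes were also drawn up with earlier results of these data known. How many of the 6 passed the fit over the whole array is stated as a count from which nothing is read.

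The samples were livers of 4-month-old male rats on standard chow. PD, the polydactylous strain, is the progenitor, and PD.SHR4, written PD.SHR4a in the series text, is a congenic strain that carries part of chromosome 4 of the spontaneously hypertensive rat and is studied as a Cd36-deficient strain. RNA was taken from 8 rats per strain, and the labelled cDNA was pooled within the strain before hybridisation to 3 PD and 2 PD.SHR4 exon arrays. The labels do not say whether a strain's arrays were hybridised with material of different animals. SDs, SEs and p-values therefore cover array-to-array spread alone, which may be technical, and not variation among rats. An SD is a gene's own spread, whereas SEs and p-values come from the limma fit, which draws each gene's spread towards that of all probe sets. All levels below are RMA expression values on the log2 scale, and a difference is PD.SHR4 minus PD on that scale.

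Pyroptosis is a lytic death in which an inflammasome, a complex of a sensor and the adaptor Pycard, activates caspase-1. Caspase-1 cleaves the precursors of interleukin-1 beta and interleukin-18 into their active forms and cleaves gasdermin D, which then forms pores in the cell membrane. Rodent caspase-11, the product of the gene now called Casp4, senses cytosolic lipopolysaccharide directly. Necroptosis is a separate lytic route in which Ripk1 or Zbp1 engages Ripk3, which phosphorylates the pore-forming protein Mlkl. In liver, interleukin-18 and inflammasome genes are known mainly from Kupffer cells, the resident macrophages, and interleukin-18 acts on T and natural killer cells, where it favours interferon-gamma production.

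Array medians ranged from 5.21 to 5.38 and lower quartiles from 2.84 to 2.93. None of the 6 genes lay below the lower quartile on any array. Cd36, whose probe set also covers its paralogue Cd36l1, differed between the strains by -3.19 ± 0.26 (SE), in the direction of the labels. Of all probe sets, 0.932% passed the test between strains (limma, Benjamini-Hochberg adjusted p under 0.05, 82 of 8797), and 0.659% passed it as lower in PD.SHR4. The hepatocyte markers Alb and Ttr lay at the top of the array range in both strains, with differences of 0.06 ± 0.11 and 0.04 ± 0.11 (SE).

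The 2 inflammatory caspases were both lower in PD.SHR4. Casp1 measured 6.04, 6.16 and 6.07 in PD and 4.85 and 5.07 in PD.SHR4, with means of 6.09 ± 0.063 (SD, n = 3) and 4.96 ± 0.16 (SD, n = 2). All PD arrays lay above both PD.SHR4 arrays, and the difference of -1.13 ± 0.13 (SE) corresponds to a level 2.19-fold lower. Casp4 measured 5.28, 5.34 and 5.50 in PD and 4.33 and 4.08 in PD.SHR4, again without overlap, a difference of -1.17 ± 0.14 (SE) or 2.24-fold. These paralogues stand next to each other on the rat genome, and cross-hybridisation between their probe sets was not tested.

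Ripk3, the kinase that commits a cell to necroptosis, showed a difference of the same size. Its values were 6.09, 6.46 and 6.35 in PD and 5.20 and 5.10 in PD.SHR4, and no PD.SHR4 array reached the lowest PD array. The difference was -1.15 ± 0.15 (SE), a level 2.22-fold lower.

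The cytokine Il18 and its antagonist were lower together. Il18 measured 5.98, 6.12 and 6.05 in PD and 4.82 and 5.04 in PD.SHR4, a difference of -1.12 ± 0.13 (SE) or 2.17-fold. Il18bp, whose secreted product binds interleukin-18 and keeps it from its receptor, measured 8.67, 8.47 and 8.78 in PD and 7.56 and 7.37 in PD.SHR4, a difference of -1.18 ± 0.15 (SE) or 2.26-fold. For both genes every PD array was above every PD.SHR4 array. The Il18 value minus the Il18bp value within an array follows the ratio of their RNA levels, apart from a fixed probe offset. The proteins were not measured, so it does not give the ratio of cytokine to antagonist. This difference averaged -2.59 ± 0.22 (SD, n = 3) in PD and -2.54 ± 0.30 (SD, n = 2) in PD.SHR4. That quantity changed by 0.06 between the strains, less than its spread within either strain. Both genes were listed with results of this comparison known, so nothing is read from the small size of that change.

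Il1b, the other cytokine that caspase-1 matures, stood apart from these 5 genes. It measured 7.33, 7.24 and 8.02 in PD and 7.04 and 6.98 in PD.SHR4, a difference of -0.52 ± 0.25 (SE) or 1.44-fold. The PD.SHR4 arrays were again the lowest, but by only a narrow margin below PD arrays 1 and 2, and PD array 3 was far above the rest. Without PD array 3 the difference was -0.28. Il1b varied most among the PD arrays, with an SD of 0.43 (n = 3) against 0.063 to 0.19 for the other 5 genes.

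**Figure D1:**
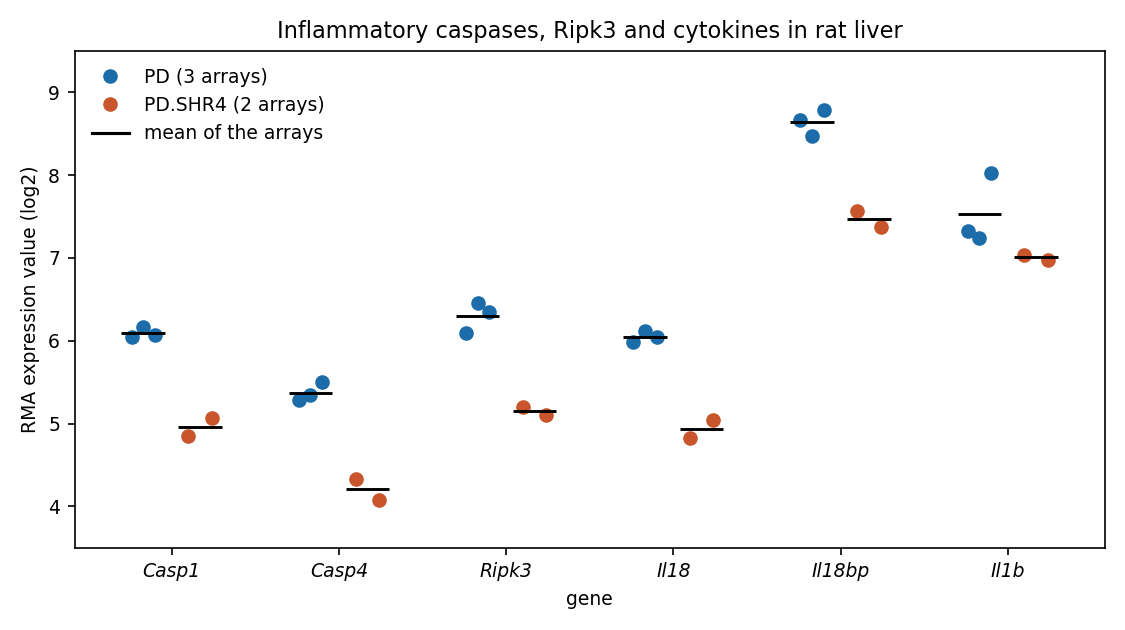
RMA expression values (log2) of the 6 genes on each of the 3 PD arrays (blue) and 2 PD.SHR4 arrays (orange), with bars at the mean of each strain's arrays. In Casp1, Casp4, Ripk3, Il18 and Il18bp the lowest PD array is 0.89 to 0.97 above the highest PD.SHR4 array, whereas in Il1b a single PD array at 8.02 stands above the others.

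Of the 6 genes, 5 passed the limma test as lower in PD.SHR4, beside 0.659% of all probe sets, and all 6 had every PD.SHR4 array below every PD array, beside 17.1% of all probe sets. The genes were chosen on this contrast, so nothing is read from these counts. Their median difference was -1.14, and that of all probe sets was 0.0002. The count depended on every array: 0 passed when PD array 1 or 3 or either PD.SHR4 array was left out, and only Il18bp passed when PD array 2 was left out. The differences themselves stayed between -1.29 and -1.01 for the 5 genes over those 5 fits.

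The 5 genes with differences near -1.1 did not share all details of their array pattern. To compare patterns, each gene was centred on its mean over the 5 arrays, and likeness was the root mean square (RMS) difference between centred values, on the log2 scale. Casp1 and Il18 were nearly superimposable, at an RMS difference of 0.012. The Casp1 value minus the Il18 value was 0.06, 0.04 and 0.03 in PD and 0.03 on each PD.SHR4 array. Casp4 and Il18bp formed the next closest pair, at 0.089, and both were higher in PD.SHR4 array 1 than in array 2, the opposite order to Casp1 and Il18. Il1b was 0.38 to 0.42 away from each of the other 5.

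Among all 8796 other probe sets, Il18 was the nearest to Casp1 and Casp1 the nearest to Il18, and Cxadr came next for both at 0.073 and 0.065. Of the 203 probe sets with a difference of at least 1 in either direction, only these 2 had a neighbour as close as 0.012, and the median distance to the nearest probe set was 0.13. This closeness is a description of 5 arrays, noticed after the values were seen, and the limit of 0.012 is the pair's own distance. The 2 genes lie apart on chromosome 8 of the reference, and none of the 4 closest protein-coding neighbours of Il18 is Casp1.

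**Figure D2:**
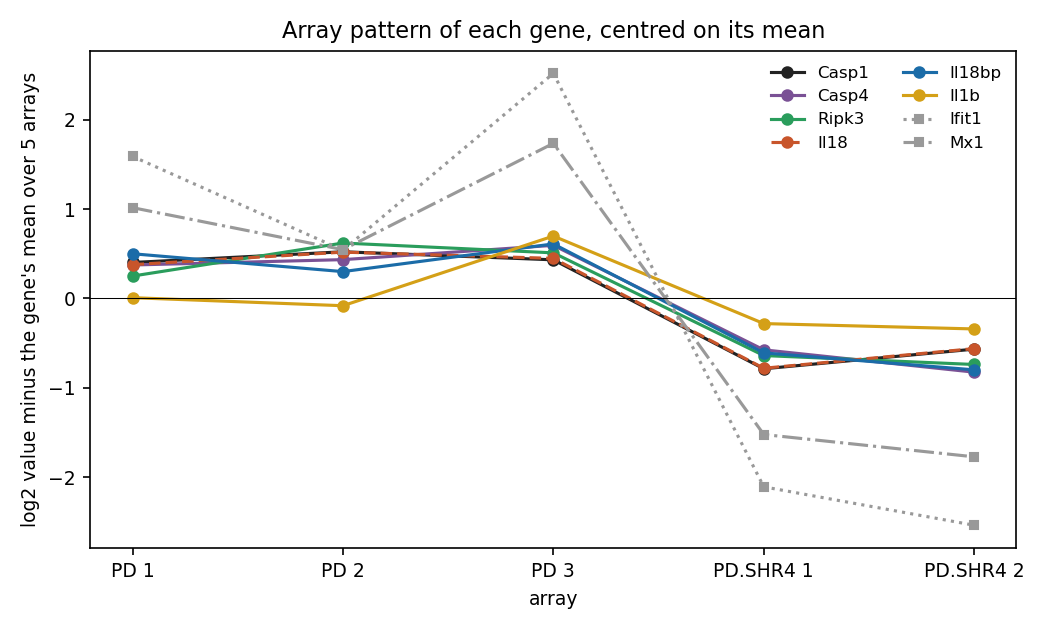
Log2 value minus the gene's own mean over the 5 arrays, for the 6 genes (circles) and the interferon-induced genes Ifit1 and Mx1 (grey squares), on each array. The Casp1 line and the dashed Il18 line coincide, and Ifit1 spans 1.98 among the PD arrays where Casp1 spans 0.12.

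Other genes with the most similar patterns were named by the same distance. For Casp1 and for Il18 the 3 nearest were Cxadr, an adenovirus receptor and junction protein, Cavin3, a caveolar coat protein, and Plscr2, a phospholipid scramblase. For Casp4 they were C6, a component of the complement membrane attack complex, at 0.053, then Capg, an actin-capping protein, at 0.09 and Syne4 at 0.094. For Ripk3 they were Cavin3 and Clpx, a mitochondrial protease subunit, both at 0.074, and the nucleoside transporter Slc28a2 at 0.088. For Il18bp they were the acute-phase protein Orm1 at 0.074, C6 at 0.078 and Nos1ap at 0.09. The nearest to Il1b were Pomgnt2 at 0.079, the AP-1 repressor Jdp2 at 0.085 and Isg20, an interferon-induced exonuclease, at 0.096, all of them highest in PD array 3. These rankings favour genes whose difference has a similar size: it was -0.97 to -1.15 for the neighbours of the 5 genes and -0.62 to -0.52 for those of Il1b.

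**Figure D3:**
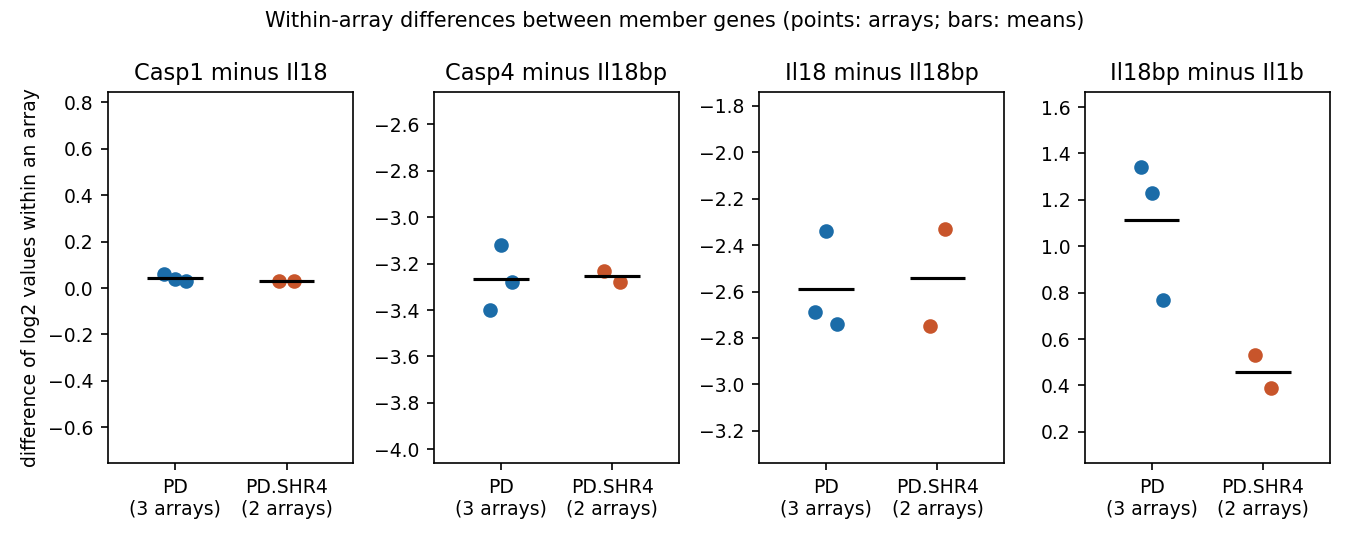
Differences between the log2 values of paired genes within each array, for 3 PD arrays (blue) and 2 PD.SHR4 arrays (orange), with bars at the means; each panel spans the same height. The means of Casp1 minus Il18, Casp4 minus Il18bp and Il18 minus Il18bp differ between strains by -0.01, 0.01 and 0.06, and that of Il18bp minus Il1b by -0.65.

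Promoter sequences of 5 of the 6 genes were found in RefSeq's table for assembly GRCr8. The 4 shown belong to genes that were lower together, so that their letters can be compared. Each covers 250 bases before to 50 after the annotated start and is printed 5′ to 3′ on the strand of the gene. Capitals mark matches to 2 searched motifs. These were the form of the interferon-stimulated response element (ISRE), which is GAAA, any 2 bases and GAAA again, and the AP-1 site TGANTCA.
Casp1 (chr8:10872580-10872879, plus strand): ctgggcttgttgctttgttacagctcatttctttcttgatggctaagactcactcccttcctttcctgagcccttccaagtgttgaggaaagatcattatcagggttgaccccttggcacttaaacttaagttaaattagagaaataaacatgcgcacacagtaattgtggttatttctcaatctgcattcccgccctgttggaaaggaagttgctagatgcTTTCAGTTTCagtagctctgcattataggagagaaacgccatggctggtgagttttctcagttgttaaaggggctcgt
Il18bp (chr1:165786906-165787205, minus strand): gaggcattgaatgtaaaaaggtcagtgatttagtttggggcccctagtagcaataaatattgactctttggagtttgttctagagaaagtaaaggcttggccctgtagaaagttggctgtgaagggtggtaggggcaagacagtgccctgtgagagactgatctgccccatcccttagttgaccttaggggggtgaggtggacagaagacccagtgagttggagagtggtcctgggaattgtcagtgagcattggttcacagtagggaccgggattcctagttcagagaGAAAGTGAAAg
Il18 (chr8:59801822-59802121, plus strand): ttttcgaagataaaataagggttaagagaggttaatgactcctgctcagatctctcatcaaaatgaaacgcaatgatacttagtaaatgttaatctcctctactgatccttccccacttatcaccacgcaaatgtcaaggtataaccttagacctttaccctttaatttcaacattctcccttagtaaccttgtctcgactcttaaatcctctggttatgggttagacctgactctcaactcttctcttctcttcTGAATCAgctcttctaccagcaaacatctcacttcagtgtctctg
Ripk3 (chr15:33261976-33262275, minus strand): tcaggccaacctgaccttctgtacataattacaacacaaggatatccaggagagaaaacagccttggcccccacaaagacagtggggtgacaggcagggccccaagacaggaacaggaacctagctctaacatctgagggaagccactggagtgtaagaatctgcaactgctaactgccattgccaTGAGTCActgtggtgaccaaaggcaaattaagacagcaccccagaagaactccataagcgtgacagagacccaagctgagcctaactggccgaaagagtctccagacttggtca

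Both strands were searched, and the motifs were chosen after the sequences and values had been seen. Casp1 held the ISRE form on the opposite strand, from -28 to -19 relative to the start, where its letters read GAAACTGAAA. Il18bp held it on its own strand, as GAAAGTGAAA, from 40 to 49 after the start. The same form was present in 3.92% of all 33469 promoters of this length. Il18 and Ripk3 held no ISRE form but an AP-1 site each, TGAATCA from 6 to 12 after the start of Il18 and TGAGTCA from -64 to -58 in Ripk3. That site was present in 7.33% of promoters. Il1b matched neither, and no promoter of the 5 matched TTCNNNGAA, a STAT site present in 8.87%, or GGGA, any 2 bases and TTCC, a form of the NF-kB site present in 1.3%. The AP-1 and STAT forms are read alike from both strands, and no 2 of the matches printed overlap. A match describes the letters only.

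None of the measured genes that lie beside the 6 on the reference passed the test. Among 20 protein-coding neighbours, up to 2 on each side, 8 were measured, with adjusted p from 0.0855 to 0.960 (limma). Casp12, beside Casp4 in the caspase row, differed by -1.46 ± 0.28 (SE, adjusted p = 0.0855). It measured 4.24, 3.63 and 4.57 in PD and 2.66 and 2.71 in PD.SHR4, so its arrays did not overlap. Both PD.SHR4 values lay below the lower quartile of their arrays, so the size of this difference is uncertain. Gria4, on the other side of Casp1, differed by -0.06 ± 0.17. Its means of 2.19 in PD and 2.13 in PD.SHR4 lay below the lower quartiles of the arrays, where a difference may not show. Pts and Sdhd, near Il18, differed by -0.04 ± 0.21 and -0.06 ± 0.11, and Adcy4, next to Ripk3, by 0.08 ± 0.11. Il1a, next to Il1b, differed by -0.32 ± 0.25 (adjusted p = 0.680).

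Other genes of these pathways were drawn from 6 lists that did not include the 6 genes. The lists too were drawn up with earlier results of these data known, which limits what their counts and p-values can show. Of 142 listed genes, 74 were measured. Irgm, an immunity-related GTPase that acts in autophagy and against intracellular bacteria, fell, 73 did not pass the limma test and 0 rose. At an unadjusted p under 0.05 there were 13 lower and 3 higher. The median difference of the 74 was -0.032, and 27.0% of them had all PD.SHR4 arrays below all PD arrays, beside 17.1% of all probe sets. The direct partners Nlrp3, Aim2, Gsdmd, Ripk1, Mlkl, Zbp1 and Il18r1 were not analysed here.

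From the list of inflammasome sensors, adaptors and genes that act around them, 9 were measured, and 1 fell. That was Irgm, a GTPase that is itself neither a sensor nor an adaptor. It measured 9.21, 9.01 and 9.74 in PD and 7.63 and 7.14 in PD.SHR4, a difference of -1.93 ± 0.26 (SE, adjusted p = 0.0457, limma). It no longer passed when any of the 5 arrays was left out, or after a further quantile normalisation. The guanylate-binding protein Gbp2, which helps expose bacterial lipopolysaccharide to caspase-11, differed by -1.17 ± 0.22 (adjusted p = 0.0855), and its arrays did not overlap. Pycard, the adaptor that joins sensors to caspase-1, measured 7.39, 7.76 and 7.78 in PD and 6.96 and 7.08 in PD.SHR4, a difference of -0.62 ± 0.16 (adjusted p = 0.173). The list's median was 0.04, since Txnip, Card9, Nlrp6, Mefv and Nlrx1 had values above 0, up to 0.30.

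From the list of pyroptosis pore and executioner genes, 5 were measured: Casp12, Casp8, Gzma, Gzmb and Ninj1. No gasdermin was among them, so the pore-forming step was not covered. All 5 values were below 0, with a median of -0.75, the value of Gzma. None passed the limma test, and 3 had an unadjusted p under 0.05. Besides Casp12 these were Gzmb and Gzma, granzymes of cytotoxic lymphocytes, at -2.01 ± 0.42 (SE, adjusted p = 0.106) and -0.75 ± 0.16 (adjusted p = 0.114). Ninj1, which ruptures the membrane of dying cells, differed by -0.25 ± 0.11 (adjusted p = 0.411). Casp8, which restrains necroptosis and can also drive pyroptosis, differed by -0.02 ± 0.17, with arrays that overlapped.

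Around Ripk3, 19 genes of necroptosis and the TNF receptor complex were measured, and 0 passed the limma test, with 3 lower at an unadjusted p under 0.05. Their median was -0.08, and 0.01 after a further quantile normalisation. The TNF receptor Tnfrsf1b differed by -0.75 ± 0.16 (SE, adjusted p = 0.107), the caspase-8 inhibitor Cflar by -0.43 ± 0.14 (adjusted p = 0.259) and the deubiquitinase Cyld by -0.50 ± 0.18 (adjusted p = 0.293). The difference of Ripk3 was larger in size than that of any of the 19, which spanned -0.75 to 0.36. Ripk3 was chosen on this contrast, so nothing is read from that order. Whether its difference departed from theirs was not tested.

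The receptors and relatives of Il18 and Il1b showed small values. Of 10 measured ligands and receptors of the interleukin-1 family, 0 passed the limma test, 0 had an unadjusted p under 0.05, and the differences ran from -0.35 to 0.22 with a median of 0.04. Il18rap, the accessory chain of the interleukin-18 receptor, measured 2.86, 2.01 and 2.36 in PD and 1.91 and 2.20 in PD.SHR4, which overlapped at a low signal. Il1rn, the natural antagonist of the interleukin-1 receptor, was 6.45, 6.50 and 6.56 in PD and 6.68 and 6.72 in PD.SHR4, a difference of 0.19 ± 0.11 (SE, adjusted p = 0.540) in the direction opposite to Il18bp. The receptors Il1r1 and Il1r2 differed by 0.22 ± 0.28 and 0.20 ± 0.16, and the value of Il1r1 was -0.06 without PD array 2.

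Of 8 measured genes that carry interleukin-1 and interleukin-18 signals, 0 passed the limma test and 1 had an unadjusted p under 0.05. That was Il12b, a subunit of interleukin-12, which acts with interleukin-18, at 0.70 ± 0.18 (SE, adjusted p = 0.171), from low levels of 3.36 to 3.79 in PD. Ikbkg, the regulatory subunit of the kinase that activates NF-kB, differed by 0.40 ± 0.16 (adjusted p = 0.371), Tab2 by -0.22 ± 0.12 (adjusted p = 0.534) and Rela, an NF-kB subunit, by -0.16 ± 0.11 (adjusted p = 0.626). Among 23 measured genes of apoptosis and other caspases, 0 passed and 4 were lower and 1 higher at an unadjusted p under 0.05. The median was -0.03, and 0.03 after either rescaling of the arrays. The survival genes Bcl2a1 and Bcl2 differed by -1.06 ± 0.26 (adjusted p = 0.154) and -0.77 ± 0.21 (adjusted p = 0.186), and Hrk, a cell-death activator, by 0.53 ± 0.19 (adjusted p = 0.283).

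**Figure D4:**
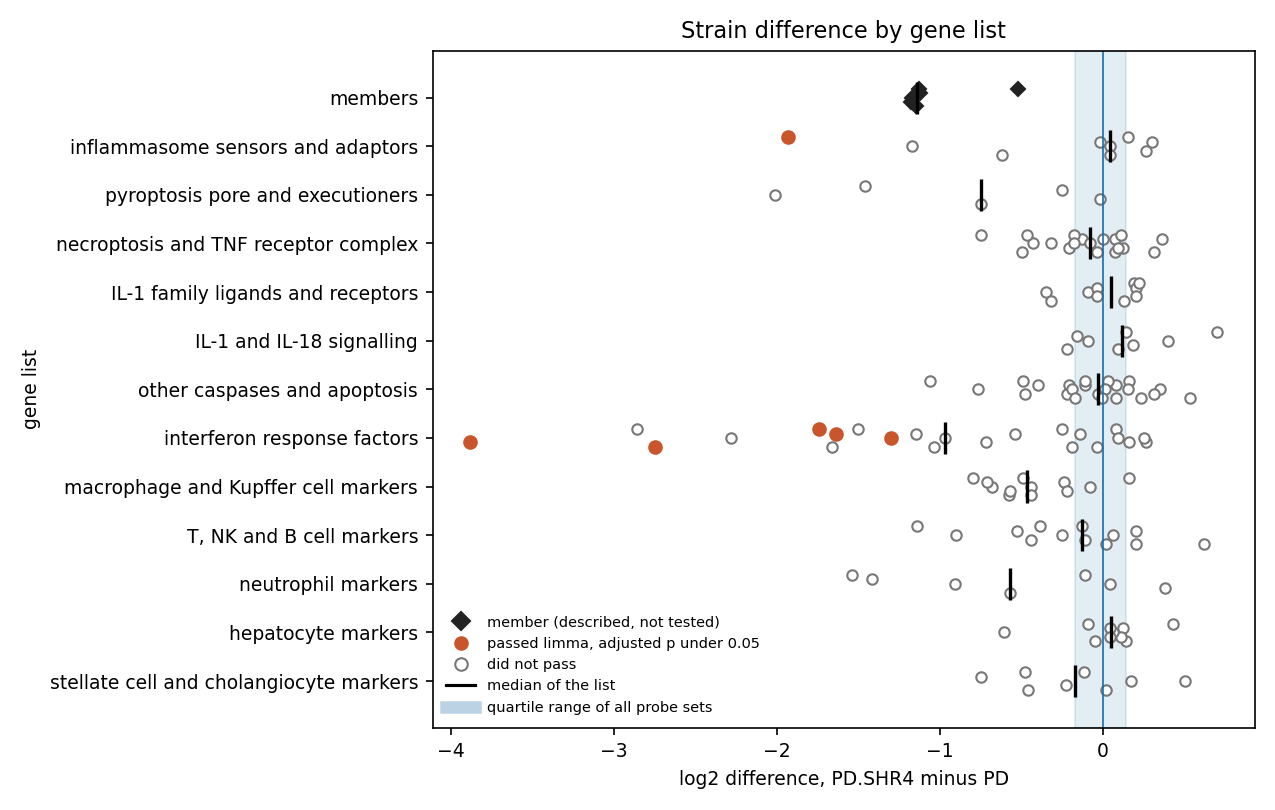
Log2 difference (PD.SHR4 minus PD) of each gene, by list, with black bars at list medians, filled circles for genes that passed limma and a blue band for the quartile range of all probe sets. The 6 genes (diamonds) sit between -1.18 and -0.52, the medians of the pathway lists between -0.75 and 0.11, and that of the interferon list at -0.97.

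Casp1, Casp4 and Il18bp are known as interferon-inducible genes, so their values stand beside those of an interferon list. Of 23 measured interferon response genes, 5 fell, 18 did not pass the limma test and 0 rose, with a median of -0.97. Those that fell were Ifit1 (-3.88 ± 0.55 SE), Mx1 (-2.75 ± 0.34), Oasl2 (-1.74 ± 0.13) and the immunoproteasome subunits Psmb9 (-1.64 ± 0.22) and Psmb8 (-1.30 ± 0.16), at adjusted p from 0.0106 to 0.0489. The number passing was 1 without PD array 1 or 3, and 0 without either PD.SHR4 array. Ifit1 did not pass after median centring or a further quantile normalisation, and the other 4 passed after both. The order of the PD arrays was not the same throughout the interferon list. Ifit1 and Mx1 were highest in PD array 3 and lowest in PD array 2, as were Il18bp and Il1b. Oasl2, Psmb8 and Psmb9 were highest in PD array 3 and lowest in PD array 1, as was Casp4. The listed genes Irf1 and Cxcl9 were highest in PD array 2 and lowest in PD array 1, as were Casp1, Ripk3 and Il18. Ifng, which encodes interferon-gamma, measured 1.96 to 2.15 in PD and 2.11 and 2.17 in PD.SHR4, below the lower quartile of every array. Irf1, a transcription factor of the interferon response, differed by -1.04 ± 0.29 (adjusted p = 0.189).

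Liver tissue holds several cell types, and in bulk RNA fewer cells of a type and less RNA per cell cannot be told apart. Markers of macrophages and Kupffer cells were lower beside the 6 genes: 11 of 12 measured had values below 0, with a median of -0.47. Their summed linear level was 6650 to 7550 in the PD arrays and 5690 in each PD.SHR4 array. None passed the limma test, and 8 were lower at an unadjusted p under 0.05. The smallest p-values were those of Tyrobp, an immune receptor adaptor (-0.80 ± 0.12 SE, adjusted p = 0.0572), Ptprc, the leukocyte antigen CD45 (-0.68 ± 0.13), and Aif1 (-0.58 ± 0.12), and the macrophage receptor gene Adgre1 differed by -0.71 ± 0.16. Clec4f, a lectin that defines Kupffer cells in rodents, measured 10.43, 10.47 and 10.68 in PD and 10.38 and 10.51 in PD.SHR4, which overlapped. The differences of Casp1, Casp4, Ripk3, Il18 and Il18bp, -1.18 to -1.12, were larger in size than that of every one of these 12 markers. Those genes were chosen on this contrast, and the marker lists were drawn up with earlier results of these data known. Nothing about leukocyte content is therefore read from that order.

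Lymphocyte and neutrophil markers gave a mixed picture. Of 13 T, natural killer and B cell markers, 8 were below 0, with a median of -0.13 and a summed level of 399 to 405 in PD and 401 to 402 in PD.SHR4. The sum weighs bright genes most, and the mean log2 level of the 13 was 4.42 to 4.44 in PD and 4.18 to 4.25 in PD.SHR4, without overlap. None passed the limma test, with 4 lower and 1 higher at an unadjusted p under 0.05: Klrk1 differed by -1.14 ± 0.21 (SE, adjusted p = 0.0811), Prf1 by -0.90 ± 0.16 and Cxcr4 by 0.62 ± 0.12. Of 7 neutrophil markers, 0 passed, 5 were below 0 and 4 were lower at an unadjusted p under 0.05, with a median of -0.57. Their summed level was 374 to 546 in PD and 231 to 232 in PD.SHR4. In PD the brightest of the 7 was the Fc receptor Fcgr3a, which other leukocytes also carry and which weighs most in that sum. The mean log2 level of the 7 was 4.84 to 5.18 in PD and 4.41 to 4.43 in PD.SHR4. Fcgr3a differed by -1.54 ± 0.26 (adjusted p = 0.0727), S100a8 by -0.91 ± 0.17 and S100a9 by -0.57 ± 0.16. Cxcr2 went the other way, at 0.38 ± 0.19 without overlap, and Mmp9 and Mmp8 differed by 0.04 ± 0.13 and -0.11 ± 0.13.

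The 10 measured hepatocyte markers had a median of 0.05, with a summed level of 61700 to 63300 in PD and 64100 to 64200 in PD.SHR4. None passed the limma test, with 1 lower and 1 higher at an unadjusted p under 0.05, Tat at -0.61 ± 0.21 (SE) and Cyp2e1 at 0.43 ± 0.11. Of 8 stellate cell and cholangiocyte markers, 0 passed, with 2 lower and 1 higher at an unadjusted p under 0.05 and a median of -0.17. Pdgfrb differed by -0.48 ± 0.17, Krt19 by 0.50 ± 0.18 and Col3a1 by -0.46 ± 0.18. None of the 10 endothelial markers listed had a probe set with its own symbol, and they were not analysed here. The part of leukocyte content in the differences of the 6 genes was not tested.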

How the data were processed

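The deposited table holds log2 expression values for 8797 core-gene probe sets on 5 arrays. The authors made them, per the labels, by RMA (background model, quantile normalisation, robust probe summary) with the Expression Console software. RMA and Partek are named in the submitters' processing notes. For versions, annotation release and build, nothing is given in the sources used here. The number of arrays limits the precision, and the values carry no detection calls.

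Gene names came from GEO's annotation of the platform: 7603 had 1 symbol, 409 several and 785 none. Gene IDs of 7584 matched the RefSeq table of assembly GRCr8, used for symbols and gene order. PD.SHR4 was compared with PD by limma 3.58.1 (R 4.3.3; lmFit, eBayes, two-sided) on all 5 arrays without covariates. P-values were adjusted by Benjamini-Hochberg over the whole table, and 0.05 was the threshold. The code was tested on simulated arrays.

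The 6 genes, the lists and the rule for naming genes were chosen with earlier results of these data known. From each list, genes past the threshold (up to 6), the 3 with the smallest p and direct partners of the 6 genes were named, with the 3 nearest patterns of each gene. Gria4, Pts, Sdhd, Adcy4, Alb, Ttr, Rela, Ifng, Irf1, Clec4f and other genes outside this rule were chosen after their values were seen, as were the motifs. Alternative fits dropped each array in turn, added the replicate number as a block, used trended robust shrinkage, dropped the dimmest 25% of probe sets, centred arrays on their medians, or quantile-normalised the values again.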

Additional observations from a re-analysis of the deposited data

How the results depend on the processing

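All 6 genes kept a negative difference in each of the 10 alternative fits: -1.24 to -1.02 for Casp1, -1.29 to -1.04 for Casp4, -1.26 to -1.07 for Ripk3, -1.23 to -1.01 for Il18, -1.27 to -1.08 for Il18bp and -0.67 to -0.28 for Il1b. Where the arrays of the strains do not overlap, leaving 1 out cannot turn the direction. Leaving out 1 array gave 0 to 55 probe sets past the threshold in place of 82, 0 to 1 of the listed pathway genes in place of 1, 0 to 4 of the interferon genes in place of 5, and 0 to 1 of the 6 genes in place of 5 (5 to 6 of them at an unadjusted p under 0.05, limma). With a single PD.SHR4 array left, that array is assumed to vary like PD. The pathway gene that passed was Casp12, without PD array 2, and Irgm, which passed with all arrays, did not pass there. With the replicate number as a block, 163 probe sets, 3 pathway genes (Gzmb, Casp12 and Irgm) and 9 interferon genes passed, and 5 of the 6 genes. Deviations of same-numbered arrays correlated at r = 0.05 and 0.08 over probe sets. Those of PD array 3 with PD.SHR4 arrays 1 and 2 correlated at 0.05 and -0.05. The 2 PD.SHR4 arrays deviate from their mean by equal and opposite amounts, so the second of these values is fixed by the first. The labels state no pairing, and a correlation over all probe sets cannot show whether some genes share a replicate effect. The block leaves 1 residual degree of freedom. An intensity trend with robust shrinkage gave 151 probe sets and leaving out the dimmest 25% gave 149. A further quantile normalisation left 0 pathway genes past the threshold (limma, 15 at an unadjusted p under 0.05), and after it or median centring 4 of the 6 genes passed, without Il18bp. Casp8 changed sign, to 0.05 with the block, 0.04 after centring, 0.07 after quantile normalisation and -0.15 to 0.05 when 1 array was left out, and Il1r1 ran from -0.06 to 0.38 when 1 array was left out. The cause of these changes was not tested. Averaging several probe sets of a gene was not run, since each of the 6 genes has 1.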

Other observations

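The ISRE form (GAAA, any 2 bases, GAAA) found in the promoters of Casp1 and Il18bp was also counted over all measured genes with a promoter in the RefSeq table, after the values were seen. Of 6242 such probe sets, 59 passed the limma test between strains, or 0.945%. Of the 234 with the form, 10 passed, or 4.27%, and all 10 were lower in PD.SHR4, while the median difference of the 234 was -0.03. Without Casp1 and Il18bp the count was 8 of 232, or 3.45%. The 8 were Irgm, Oasl2, Psmb8, Apol3l1, Epsti1, Lgals9 (a galectin), Ifgga2l1 and Bst2, which tethers enveloped viruses to the cell surface. Their differences ran from -2.73 for Apol3l1 to -0.97 for Bst2. Promoters with the AP-1 form, as in Il18 and Ripk3, had 9 calls among 459 probe sets, or 1.96%, 7 of them lower, and 7 among 457, or 1.53%, without those 2 genes. Promoters with the STAT form had 9 among 548, or 1.64%, and those with the NF-kB form 1 among 96, or 1.04%. No test was made of these shares.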
